A study of Mus musculus with 12 samples.

Results

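Cultured mouse aortic smooth muscle cells labelled as given an αKlotho lentivirus in calcification medium were set against cells in calcification medium alone. The comparison takes the 6 libraries with these labels out of the 12 in the series, 3 per group, and every gene with a mean of at least 1 FPKM over the 6. These were 10795 of the 25745 genes in the deposited table. FPKM is the number of sequenced fragments scaled to the length of a gene's exons and to the size of the library, so levels can be compared between genes. Differences were taken on log2(FPKM + 1), Klotho lentivirus minus calcification medium, within pairs of libraries with the same replicate number.

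The cells of every group were wild-type primary cells that grew out of pieces of thoracic aorta from C57BL/6J mice 5 to 6 weeks old, stripped of adventitia and endothelium, and were used between passages 5 and 8. The Klotho group was kept for 7 days in calcification medium, which holds 3.0 mM sodium phosphate, and carries the label LV-Klotho. The calcification group was kept for the same time in the same medium and its labels name no virus, nor do they say whether its cells received any. Infection itself and the transgene therefore cannot be told apart in this comparison. The promoter of the transgene is not given in the sources used here. The other 6 libraries were from cells in calcification medium with an empty lentivirus (vector) and from cells in basal medium (control). The labels do not say whether the 3 replicates of a group were separate cultures or animals, so every p-value here covers the spread among these libraries alone, and that spread may be technical.

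αKlotho is a membrane protein, best known from the kidney tubule, that joins fibroblast growth factor receptors as the co-receptor for the phosphate-lowering hormone FGF23. Its extracellular part is also shed and circulates. Mice that lack it develop calcified arteries, and smooth muscle cells in high phosphate can lose contractile genes, gain genes of bone and cartilage cells and deposit mineral. Fibroblast growth factor receptors signal through the kinase ERK, which switches on immediate early genes, a class of mostly transcription factor genes that respond to growth factors without new protein synthesis.

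The 6 libraries held between 16652000 and 20008000 fragments, as worked out from the table's own values. The replicate number accounted for 73.1% of the sum of squares of log2(FPKM + 1) over the tested genes, the group for 12.2% and the remainder for 14.7%. Replicate 1 of both groups stood apart on the first principal component, with scores of -26.2 (Klotho) and -30.3 (calcification), while the other 4 libraries lay between 10.9 and 16.7. The 8 smooth muscle markers were all above the filter, and the same libraries were low in them: their summed level was 164, 801 and 1223 FPKM in Klotho replicates 1 to 3, and 158, 679 and 1068 FPKM in calcification replicates 1 to 3. In bulk RNA, fewer cells of a type and less RNA per cell cannot be told apart, for these or any other genes. Endothelial markers were low: 9 of 12 were below the filter, among them Pecam1 at 0.237 to 1.59 FPKM in Klotho libraries and 0.253 to 1.30 FPKM in calcification libraries. The summed level of 8 tested macrophage markers was 100, 42.2 and 37.4 FPKM in Klotho libraries and 102, 36.8 and 34.4 FPKM in calcification libraries.

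Kl, the gene for αKlotho, was listed at 0 in Klotho replicates 1 and 2 and in all 3 calcification libraries, and stood at 0.00536 FPKM in Klotho replicate 3. A count of 3 fragments would have come to at most 0.0193 FPKM in any of the 6. The label is thus not borne out by the transcript, and the group is called the libraries labelled Klotho, or Klotho libraries, with every direction resting on that label. Reads of a transgene from another species or a recoded one may not map to mouse Kl.

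The differences between the groups were small on log2(FPKM + 1). By limma with the replicate number as a block, 0 of 10795 genes passed a Benjamini-Hochberg adjusted p under 0.05 (0.0% in either direction, lowest adjusted p = 0.227). At an unadjusted p under 0.05 there were 1537 genes, or 14.2%, where 540 would be expected by chance. Of these, 689 (6.38%) were higher in the Klotho libraries and 848 (7.86%) were lower. All 3 pairs were higher for 1660 genes (15.4%) and lower for 2532 (23.5%), and the groups did not overlap for 346 genes higher (3.21%) and 458 lower (4.24%) in Klotho libraries. The median difference of all tested genes was -0.03 on the log2 scale, and 19 genes differed by more than 1 in either direction. For 10604 genes (98.2%) the 95% interval of the difference lay within 1 of 0. The added 1 FPKM shrinks the differences of genes with low levels, so such an interval is easier to reach for them.

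limma-voom, a related method that weights each value by its fragment number, was run with the same block on fragments recovered from the FPKM values. It called 114 of 10773 genes, 57 higher (0.529%) and 57 lower (0.529%) in the libraries labelled Klotho. Unadjusted, 712 genes (6.61%) were higher and 1059 (9.83%) lower at a p under 0.05. All 114 had the same direction in the 3 pairs, and in 66 of them the groups did not overlap. A fit on pairs favours genes whose pairs agree, so this agreement is not separate evidence for the calls. These calls depended on the pairing, on replicate 2, on the set of libraries fitted and on trends with GC content and length. limma-voom called 0 genes without the block, 0 with all 12 libraries and the block, and 9 once those trends were removed. It called 6 without replicate 2, against 190 without replicate 1 and 108 without replicate 3. limma itself called 11 genes without replicate 1, the metallothionein gene Mt2 among them, and 0 without replicate 2 or 3. The 6 called without replicate 2 were Egr1, Ier2, Junb, Prdx1, mt-Nd1 and Rpl17, so every other call named below was lost without it. Only Egr1, Ier2, Junb and Prdx1 were called by limma-voom with all 6 libraries, with those trends removed and without each replicate in turn. In what follows, the shares of all tested genes just given are repeated in brackets beside the counts of a list, and a bracketed range of medians is that over leaving out each replicate. Called means called by limma-voom with the block over the 3 pairs. Each difference and its SE come from limma, and each adjusted p from the tool named beside it. No gene named here was called by limma over all 3 pairs.

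**Figure D1:**
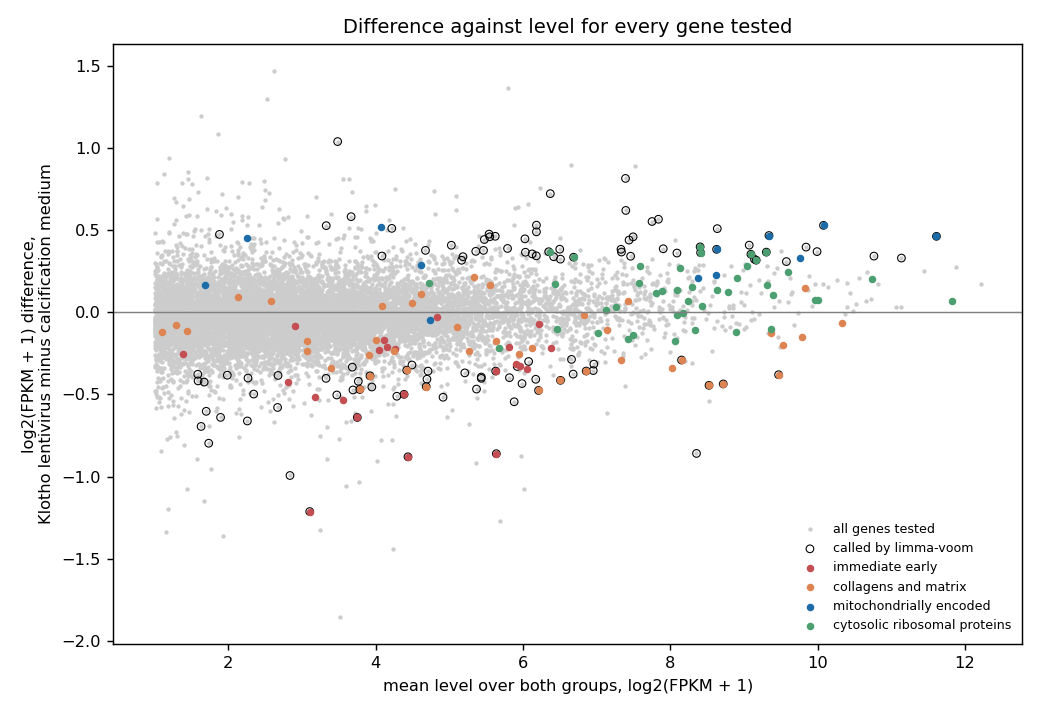
Each point is 1 of the 10795 tested genes, with its mean level over both groups on the horizontal axis and its difference, Klotho lentivirus minus calcification medium, on the vertical axis, both on log2(FPKM + 1). Open circles mark the 114 genes that limma-voom called. Coloured points show immediate early genes, which all lie below 0, collagen and matrix genes, mostly below 0, and mitochondrially encoded and cytosolic ribosomal protein genes, mostly above 0.

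Immediate early genes were the list that stood lowest in the libraries labelled Klotho. All 22 tested members of 25 had a negative difference, with a median of -0.32 against -0.03 for all genes, and 19 were lower in all 3 pairs (23.5% of all genes were). An unadjusted p under 0.05 was reached by 16 (7.86% of all genes were lower at that level), and 6 were called (0.529% of all genes were called lower): Egr1, Ier2, Junb, Btg2, Zfp36 and Fos. Groups did not overlap for 8 of the 22 (4.24% of all genes were lower without overlap). The 3 members not tested were Fosb, Egr2 and Egr3, whose levels were below the filter.

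Egr1, a zinc finger transcription factor and a classical target of ERK, stood at 5.33, 3.21 and 3.21 FPKM in Klotho replicates 1 to 3, against 19.2, 7.57 and 7.07 FPKM in calcification replicates 1 to 3. Every Klotho library was below every calcification library, and calcification replicate 1 was the highest of the 6. The difference was -1.21 ± 0.15 on the log2 scale (SE, n = 3 pairs, limma-voom adjusted p = 6.4e-04). Junb, a component of the AP-1 transcription factor, stood at 38.8, 23.6 and 42.7 FPKM in Klotho libraries, against 62.1, 59.4 and 66.2 FPKM in calcification libraries. The groups did not overlap, and Klotho replicate 2 was the lowest (difference -0.86 ± 0.14 SE, limma-voom adjusted p = 0.0039). Ier2, a nuclear immediate early protein, stood at 14.4, 13.5 and 14.6 FPKM in Klotho libraries, against 30.9, 21.5 and 29.2 FPKM in calcification libraries (-0.88 ± 0.10 SE, limma-voom adjusted p = 0.0035). The Klotho libraries of Ier2 lay close together and all below the calcification libraries.

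Zfp36 and Btg2 act on messenger RNA, the first by binding AU-rich elements and the second in deadenylation and growth arrest. Zfp36 stood at 16.6, 15.3 and 17.0 FPKM in Klotho libraries, against 23.9, 23.7 and 22.9 FPKM in calcification libraries, with a difference of -0.50 ± 0.07 (SE, limma-voom adjusted p = 0.0164). Btg2 stood at 10.1, 8.17 and 10.3 FPKM in Klotho libraries, against 14.1, 15.5 and 16.5 FPKM in calcification libraries (-0.64 ± 0.10 SE, limma-voom adjusted p = 0.0177). Neither gene's groups overlapped. Fos, the partner of the Jun proteins in AP-1, stood at 53.8, 38.4 and 34.8 FPKM in Klotho libraries, against 71.5, 45.8 and 46.8 FPKM in calcification libraries. Its groups overlapped because replicate 1 was high in both, while within pairs the Klotho library was lower each time (-0.36 ± 0.07 SE, limma-voom adjusted p = 0.043).

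Members of the class without a call included further AP-1 genes. Jun stood at 11.7, 6.00 and 8.48 FPKM in Klotho libraries and 13.7, 13.9 and 10.7 FPKM in calcification libraries, with a difference of -0.54. Fosl1 stood at 5.14, 4.72 and 5.06 FPKM in Klotho libraries and 5.43, 8.33 and 7.51 FPKM in calcification libraries (-0.42). Klf4, a transcription factor linked to loss of the contractile state, stood at 64.5, 48.1 and 49.2 FPKM in Klotho libraries and 76.3, 74.6 and 53.8 FPKM in calcification libraries (-0.33 ± 0.10 SE). Pair 2 had the largest difference for Jun, Fosl1 and Klf4. The nuclear receptor gene Nr4a1 (-0.08), the growth arrest gene Gadd45b (-0.17) and Klf2 (-0.03) were the 3 members with a pair that was higher. Klf2 turned to 0.03 with trends of GC content and length removed. Without replicate 2 the median of the class was -0.25, and limma-voom then called 3 members.

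**Figure D2:**
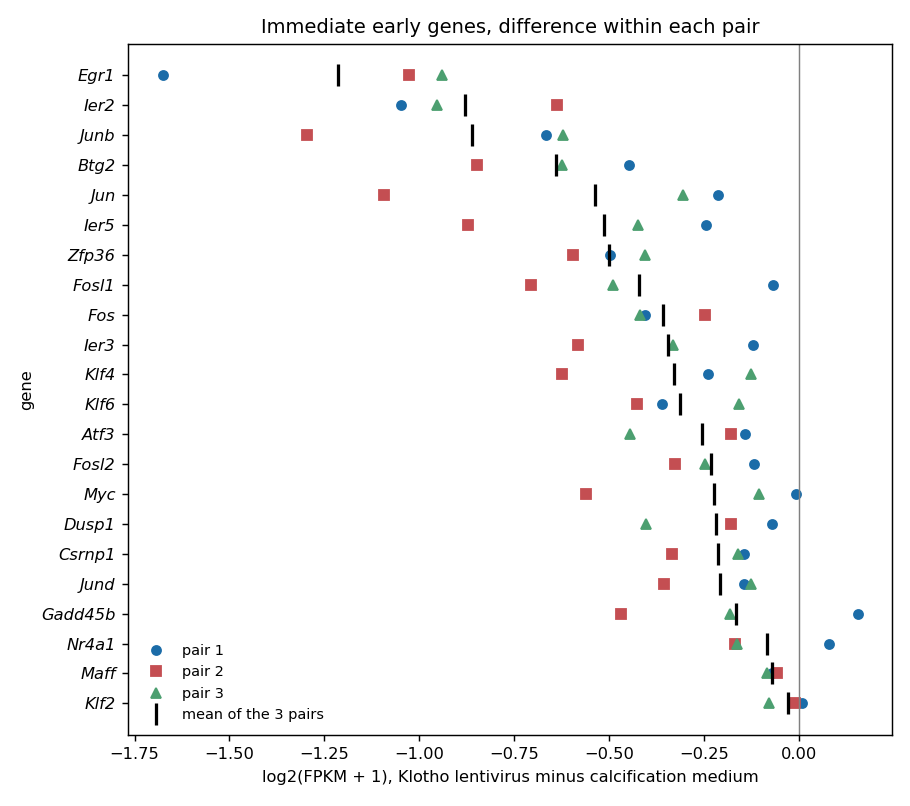
Difference of each of the 22 tested immediate early genes on log2(FPKM + 1), Klotho lentivirus minus calcification medium, shown for pairs 1 to 3 (circles, squares and triangles) with a bar at their mean. The means run from -1.21 for Egr1 to -0.03 for Klf2, and 19 genes have all 3 pairs below 0.

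The bases before the start sites of 4 called members are shown because immediate early promoters carry short elements that signalling-regulated factors bind. The element TGACG is part of the cAMP response element, bound by CREB and ATF proteins, and its full palindromic form is TGACGTCA. The CArG box is bound by serum response factor. Each sequence below is the 250 bases before the start of the gene, read 5′ to 3′ on the gene's strand, from RefSeq on GRCm38.p6. Capitals mark TGACG or TGACGTCA, on either strand, and the CArG box.
Btg2 (chr1:134079156-134079405, minus strand): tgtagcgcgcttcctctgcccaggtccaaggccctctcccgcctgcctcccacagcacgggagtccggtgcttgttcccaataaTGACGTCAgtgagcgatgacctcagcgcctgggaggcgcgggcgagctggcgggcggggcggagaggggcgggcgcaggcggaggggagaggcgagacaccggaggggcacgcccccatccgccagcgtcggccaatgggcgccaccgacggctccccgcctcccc
Fos (chr12:85473640-85473889, plus strand): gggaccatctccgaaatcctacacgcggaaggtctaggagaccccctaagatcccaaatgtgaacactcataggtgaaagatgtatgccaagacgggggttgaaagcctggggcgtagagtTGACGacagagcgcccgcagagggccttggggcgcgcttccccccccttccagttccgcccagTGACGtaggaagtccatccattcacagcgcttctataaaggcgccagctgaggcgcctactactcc
Junb (chr8:84978749-84978998, minus strand): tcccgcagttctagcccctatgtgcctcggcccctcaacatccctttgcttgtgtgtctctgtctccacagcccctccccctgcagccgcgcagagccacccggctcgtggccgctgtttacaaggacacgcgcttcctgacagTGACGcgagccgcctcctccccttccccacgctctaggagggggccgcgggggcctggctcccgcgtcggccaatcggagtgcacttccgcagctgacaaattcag
Zfp36 (chr7:28379229-28379478, minus strand): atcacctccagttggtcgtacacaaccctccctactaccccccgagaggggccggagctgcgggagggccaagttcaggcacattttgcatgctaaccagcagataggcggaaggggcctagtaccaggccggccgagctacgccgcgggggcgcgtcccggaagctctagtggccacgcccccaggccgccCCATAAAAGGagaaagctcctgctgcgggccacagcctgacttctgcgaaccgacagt
The promoters of 18 of the 22 tested members were used. Those of the called members Egr1 and Ier2 were not among the 18, so the counts that follow do not cover these genes. Searched on both strands, TGACG lay in 9 of the 18, against 17.77% of the 32851 mouse promoters in the table. TGACGTCA, which contains TGACG, lay in 2 of the 18 against 1.55%, and the CArG box in 1 of the 18, that of Zfp36, against 1.47%. These matches describe letters in this window and are not evidence of binding. Bases further from the start were not searched. The CArG count thus covers these 18 windows alone and does not show how common the box is in the class.

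Genes of fibroblast growth factor receptor signalling and of its ERK feedback, the pathway that αKlotho joins, had a median difference of -0.15 over 22 tested members of 29, and of -0.09 without replicate 2. Of the 22, 12 were lower (23.5% of all genes) and 1 higher (15.4%) in all 3 pairs, and 7 were lower (7.86%) and 0 higher (6.38%) at an unadjusted p under 0.05. Egr1, also counted among the immediate early genes, was the only call (0.529% of all genes were called lower). Fgfr1, the receptor that pairs with αKlotho for FGF23, stood at 65.7, 26.0 and 32.0 FPKM in Klotho libraries, against 74.5, 31.1 and 34.8 FPKM in calcification libraries. It was lower in each pair by a small amount (-0.18 ± 0.07 SE, limma adjusted p = 0.318). Dusp6 and Dusp4 encode phosphatases that switch off ERK and are made in response to it. Dusp6 stood at 6.59, 7.33 and 5.57 FPKM in Klotho libraries and 8.89, 9.32 and 6.76 FPKM in calcification libraries (-0.31 ± 0.08 SE), and Dusp4 was lower in each pair too (-0.24 ± 0.07 SE, limma adjusted p = 0.257 for Dusp6 and 0.283 for Dusp4). The ERK-induced transcription factor genes Etv4 (0.08) and Etv5 (0.10) differed little, with intervals from -0.24 to 0.41 and from -0.14 to 0.34. Klb, Fgfr3, Fgfr4 and Fgf21 were among the 7 members below the filter.

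Transcripts of the mitochondrial genome, which encodes subunits of the respiratory chain, stood highest of the lists in the libraries labelled Klotho. The 12 tested of 13 had a median difference of 0.36, and 11 of them were positive. In all 3 pairs 8 were higher (15.4% of all genes were) and none lower, and 7 were higher at an unadjusted p under 0.05 (6.38% of all genes). The 4 calls (0.529% of all genes were called higher) were mt-Nd1, mt-Nd2 and mt-Nd4, subunits of complex I, and mt-Co1, a subunit of complex IV. mt-Nd1 stood at 1139.6, 1337 and 1353 FPKM in Klotho libraries, against 746, 910 and 1006 FPKM in calcification libraries, without overlap (0.53 ± 0.07 SE, limma-voom adjusted p = 0.0035). mt-Atp6, a subunit of the ATP synthase, stood at 18.7, 19.1 and 18.5 FPKM in Klotho libraries, against 13.9, 13.1 and 11.3 FPKM in calcification libraries, without a call (0.52 ± 0.08 SE, limma-voom adjusted p = 0.125). mt-Co1 stood at 4029, 3618 and 3264 FPKM in Klotho libraries, against 2775, 2409.6 and 2711 FPKM in calcification libraries (0.46 ± 0.09 SE, limma-voom adjusted p = 0.0131). The groups did not overlap for mt-Co1 either, and the highest Klotho library was replicate 1. mt-Co2 had no such difference (-0.05, 95% interval from -0.45 to 0.36), with 28.0, 20.2 and 27.6 FPKM in Klotho libraries and 21.8, 30.6 and 25.9 FPKM in calcification libraries.

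Mitochondrially encoded transcripts together made up 2.66%, 2.62% and 2.26% of total FPKM in Klotho libraries, against 1.90%, 2.003% and 1.89% in calcification libraries. Each Klotho library was above each calcification library, and the mean shares differed by 0.577 percentage points. An exact two-sided permutation test of 3 libraries against 3 gave p = 0.1, the smallest it allows, and exact sign flips of the 3 pairs gave p = 0.25, also the smallest. With trends of GC content and length removed, the median of the 12 genes was 0.21 and limma-voom called 0 of them. The list's genes have a median GC content of 37.4% and a median exon length of 870.5 bases, against 50.1% and 4128 bases over all tested genes. The part of GC content and length in the difference was not tested further.

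Nuclear genes of the respiratory chain had a median difference of 0.10 (0.06 to 0.12) over 33 tested members, with 16 higher (15.4% of all genes) and 4 lower (23.5%) in all 3 pairs and 0 called. Ndufa6, of complex I, stood at 28.5, 27.3 and 27.8 FPKM in Klotho libraries and 22.4, 21.4 and 23.0 FPKM in calcification libraries, without overlap (0.31 ± 0.07 SE, limma adjusted p = 0.237). Ndufa4, a subunit bound to complex IV, was higher in each pair (0.36, limma adjusted p = 0.25). Cox5b, of complex IV, was lower in each pair, with 20.5, 28.9 and 38.9 FPKM in Klotho libraries and 25.6, 34.2 and 50.4 FPKM in calcification libraries (-0.30 ± 0.07 SE, limma adjusted p = 0.237). Uqcrh, a complex III subunit outside the list, was called: it stood at 78.0, 72.5 and 100.5 FPKM in Klotho libraries, against 54.4, 49.8 and 74.5 FPKM in calcification libraries (0.49 ± 0.06 SE, limma-voom adjusted p = 0.0152). Nuclear and mitochondrial subunits of the same complexes thus did not all stand on the same side.

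**Figure D3:**
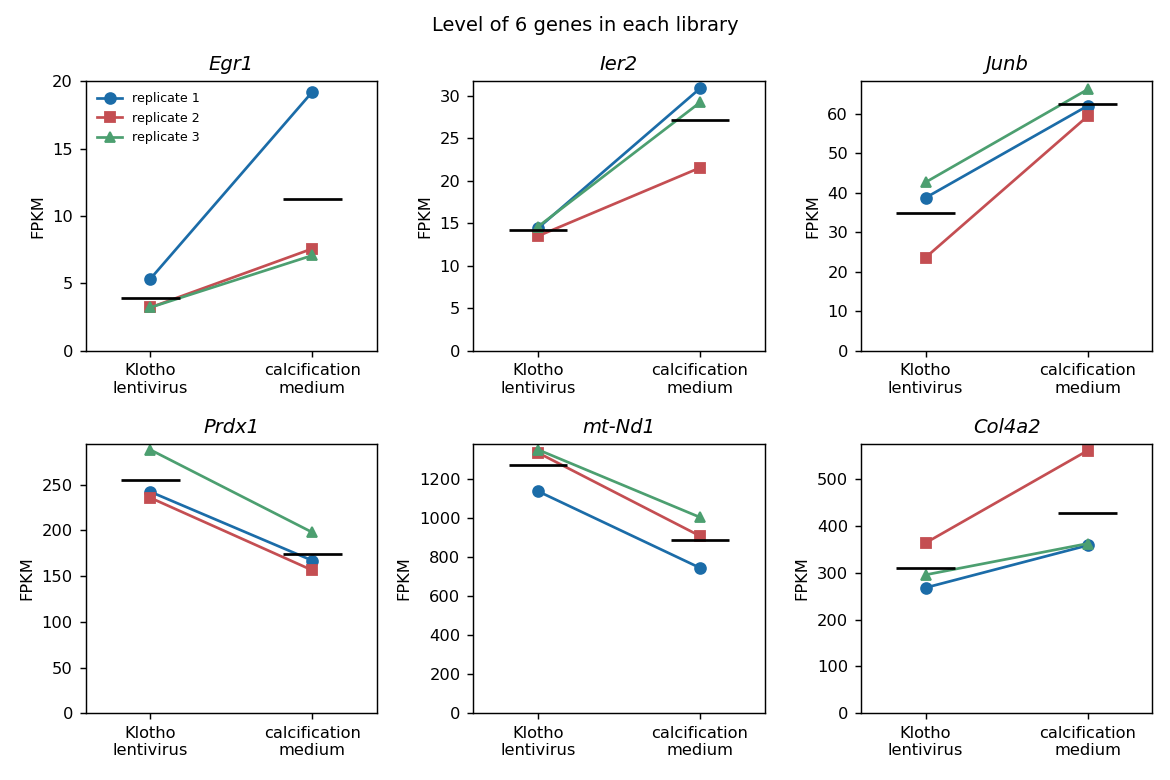
FPKM of 6 called genes in each of the 6 libraries, the Klotho libraries on the left and the calcification libraries on the right of each panel. Lines join libraries with the same replicate number, and black bars are group means. Egr1, Ier2, Junb and Col4a2 are lower in the Klotho library of every pair, and Prdx1 and mt-Nd1 are higher.

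Antioxidant genes were mixed, with a median difference of 0.04 (-0.02 after quantile normalization) over 30 tested members. In all 3 pairs 9 were higher (15.4% of all genes) and 6 lower (23.5%). At an unadjusted p under 0.05, 5 were higher (6.38%) and 3 lower (7.86%), and 2 were called, both higher (0.529% of all genes were called higher). Prdx1, a peroxiredoxin that reduces hydrogen peroxide, stood at 242, 236 and 288 FPKM in Klotho libraries, against 167, 156 and 198 FPKM in calcification libraries. No Klotho library was as low as any calcification library, and the difference was 0.55 ± 0.06 (SE, limma-voom adjusted p = 0.0029). Gpx1, a glutathione peroxidase, stood at 119, 205 and 258 FPKM in Klotho libraries and 86.5, 159 and 224 FPKM in calcification libraries (0.34 ± 0.07 SE, limma-voom adjusted p = 0.0467). Its level followed the replicate number, with the Klotho library higher within each pair. Gstk1, a glutathione transferase outside the list, was called too, with 12.5, 15.5 and 14.7 FPKM in Klotho libraries and 8.58, 9.08 and 9.77 FPKM in calcification libraries (0.58 ± 0.08 SE, limma-voom adjusted p = 0.046). Fth1, for the heavy chain of the iron store ferritin, was higher in each pair (0.25, limma adjusted p = 0.279), and -0.11 after quantile normalization. Other members had negative differences, among them Gclc (-0.26), for glutathione synthesis, and the thioredoxin reductase gene Txnrd1 (-0.25).

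The metallothionein genes Mt1 and Mt2, whose proteins bind zinc and copper, went different ways. Mt2 stood at 32.7, 17.7 and 26.2 FPKM in Klotho libraries and 21.8, 57.4 and 85.4 FPKM in calcification libraries, so pair 1 was higher and pairs 2 and 3 were lower. The difference was -0.92 ± 0.42 (SE, limma adjusted p = 0.387) over all pairs and -1.66 without replicate 1. Mt1, with far higher levels, stood at 2213, 1283 and 1843 FPKM in Klotho libraries and 1632, 1251 and 1544 FPKM in calcification libraries (0.24 ± 0.09 SE). These genes are close relatives, so their values are uncertain. Slc30a1, a zinc exporter named after its values were seen, was called lower, with 2.15, 1.36 and 1.18 FPKM in Klotho libraries and 4.10, 2.38 and 2.30 FPKM in calcification libraries (-0.60 ± 0.11 SE, limma-voom adjusted p = 0.0237).

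Cytosolic ribosomal protein genes had a median difference of 0.13 over 42 tested, and of 0.07 without replicate 2. In all 3 pairs 25 were higher (15.4% of all genes) and 7 lower (23.5%), and 15 were higher (6.38%) and 3 lower (7.86%) at an unadjusted p under 0.05. The 6 called, Rpl7, Rpl10, Rps4x, Rps6, Rps14 and Rps24, were all higher in the libraries labelled Klotho (0.529% of all genes were called higher). Rps24 stood at 109.8, 105 and 127 FPKM in Klotho libraries, against 92.5, 80.6 and 97.1 FPKM in calcification libraries (0.34 ± 0.07 SE, limma-voom adjusted p = 0.0325). Rps6, a substrate of the growth-linked S6 kinases, stood at 580, 633 and 697 FPKM in Klotho libraries, against 496, 466 and 570 FPKM in calcification libraries (0.32 ± 0.07 SE, limma-voom adjusted p = 0.0432). Outside the list, Rps15a (0.53), Rpl26 (0.51) and Rpl17 (0.82) were called and are named after their values were seen. Without replicate 2, 0 members of the list were called. Ribosomal protein genes have many near-identical pseudogene copies that share reads, so their values are uncertain.

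Collagens and other matrix genes were mostly lower in the libraries labelled Klotho. Over 42 tested the median difference was -0.19 (-0.28 to -0.14). In all 3 pairs 23 were lower (23.5% of all genes) and 3 higher (15.4%), 22 were lower (7.86%) and 1 higher (6.38%) at an unadjusted p under 0.05, and 11 were called, all lower (0.529%). The called members were the fibrillar collagen genes Col1a1, Col1a2, Col3a1, Col5a1, Col5a2 and Col11a1, the basement membrane genes Col4a1 and Col4a2, the short-chain collagen gene Col8a1, Col16a1, and Tnc, which encodes tenascin C. Groups overlapped for 8 of the 11, and did not for Col5a2, Col16a1 and Tnc. Over all 42 tested members, 3 were lower without overlap (4.24% of all genes were). Without replicate 2, limma-voom called 0 members and the median was -0.14. With trends of GC content and length removed, the median was -0.16 and 0 members were called.

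Col4a2 encodes an α chain of the main basement membrane collagen. It stood at 268, 363 and 295 FPKM in Klotho libraries, against 358, 560 and 362 FPKM in calcification libraries (-0.44 ± 0.08 SE, limma-voom adjusted p = 0.0145). Its head-to-head neighbour Col4a1 stood at 328, 404 and 328 FPKM in Klotho libraries, against 415, 648 and 401 FPKM in calcification libraries (-0.44 ± 0.09 SE, limma-voom adjusted p = 0.0197). In both genes replicate 2 was the highest library of its group and pair 2 had the widest gap. Col5a2, of the collagen that starts fibril assembly, stood at 64.7, 56.8 and 61.1 FPKM in Klotho libraries, against 78.1, 97.4 and 80.5 FPKM in calcification libraries, without overlap (-0.48 ± 0.10 SE, limma-voom adjusted p = 0.0233). Col3a1 stood at 187, 59.2 and 59.8 FPKM in Klotho libraries, against 227, 79.3 and 77.9 FPKM in calcification libraries (-0.36 ± 0.06 SE, limma-voom adjusted p = 0.0237). For Col3a1 replicate 1 was the highest library of each group, and the Klotho library was lower in each pair.

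Fn1, for fibronectin (-0.12, 95% interval from -0.28 to 0.03), and Sparc (-0.06) had small negative differences, and Bgn (0.15) and Mfap5 (0.22) had positive ones; none of these was called. Among matrix proteases and their inhibitors, Adamts5, an aggrecan-cleaving protease, was called lower, with 64.0, 55.1 and 39.1 FPKM in Klotho libraries and 73.2, 77.3 and 48.9 FPKM in calcification libraries (-0.33 ± 0.08 SE, limma-voom adjusted p = 0.0451). The 21 tested members of that list had a median of -0.03 (-0.09 to -0.03), with Adamts1 (-0.30) and Mmp2 (-0.16) lower in each pair without a call. Genes outside the lists that were called lower and are named after their values were seen include Hspg2 (-0.38), Col4a5 (-0.40) and Agrn (-0.47), which encode basement membrane proteins, and the endocytic receptor gene Lrp1 (-0.35).

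The study names Hif1a and Hsp90aa1, genes of the hypoxia response and of the chaperone HSP90, which stabilizes many client proteins. Hif1a, the oxygen-regulated subunit of hypoxia-inducible factor, stood at 20.1, 11.5 and 16.2 FPKM in Klotho libraries, against 16.1, 12.7 and 17.3 FPKM in calcification libraries. Its pairs went in both directions (0.02, 95% interval from -0.23 to 0.28). Epas1, the subunit of a second such factor, stood at 26.3, 23.8 and 24.0 FPKM in Klotho libraries, against 30.1, 36.6 and 28.5 FPKM in calcification libraries, without overlap (-0.34 ± 0.10 SE, limma adjusted p = 0.269). Hsp90aa1 stood at 89.9, 112 and 108 FPKM in Klotho libraries and 67.6, 112 and 120 FPKM in calcification libraries (0.09, interval from -0.18 to 0.35). Hsp90ab1 stood at 509, 491 and 519 FPKM in Klotho libraries and 558, 555 and 505 FPKM in calcification libraries (-0.09, interval from -0.26 to 0.08). The 14 tested HIF subunits and regulators had a median of -0.02 (0.02 after quantile normalization, and -0.07 to 0.01 with a replicate left out), with 2 higher (15.4% of all genes) and 4 lower (23.5%) in all 3 pairs. Elob (0.20) and Eloc (0.26), adaptors of the ligase that marks HIF for destruction, were the 2 higher. The 33 tested HSP90 and chaperone genes had a median of -0.07, which turned to 0.01 without replicate 2, with 7 higher (15.4%) and 4 lower (23.5%) in all 3 pairs and 0 called. Hspa8 (0.24) and Hspb1 (0.21), chaperones of other families, were higher in each pair, and Fkbp4 (-0.20), an HSP90 co-chaperone, was lower.

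Hypoxia targets had a median difference of -0.11 over 26 tested, with 12 lower (23.5% of all genes) and 2 higher (15.4%) in all 3 pairs. Vegfa, the endothelial growth factor, was the only call (0.529% of all genes were called lower). It stood at 4.70, 3.36 and 4.27 FPKM in Klotho libraries, against 6.82, 7.08 and 5.91 FPKM in calcification libraries, without overlap (-0.58 ± 0.12 SE, limma-voom adjusted p = 0.0398). The vasodilator peptide gene Adm stood at 302, 192 and 205 FPKM in Klotho libraries and 350.1, 243 and 232 FPKM in calcification libraries, lower in each pair (-0.24 ± 0.07 SE, limma adjusted p = 0.266), and so was Angptl4 (-0.26), an inhibitor of lipoprotein lipase. The glucose transporter gene Slc2a1 (-0.10), the glycolytic gene Pgk1 (0.11) and Ndufa4l2 (-0.04) had pairs in both directions. Glycolysis genes had a median of -0.01 (0.01 after median-of-ratios scaling, and -0.04 to 0.02 with a replicate left out) over 17 tested. In all 3 pairs 4 were lower, the share of all genes (23.5%), and 0 higher (15.4%), and 0 were called. Pfkl (-0.28) and Hk1 (-0.10) were lower in each pair, and Hk2 (-0.43) in 2 of 3.

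Contractile genes of smooth muscle differed mainly by replicate. Acta2, for smooth muscle actin, stood at 138, 696 and 1080.5 FPKM in Klotho libraries and 128, 580 and 923 FPKM in calcification libraries, so the gap between replicates 1 and 3 was far wider than that within a pair (0.20 ± 0.07 SE, limma adjusted p = 0.296). Myh11, for smooth muscle myosin, stood at 1.87, 23.0 and 29.6 FPKM in Klotho libraries and 2.58, 23.1 and 34.0 FPKM in calcification libraries (-0.17, 95% interval from -0.38 to 0.04). Tagln (0.17, interval from -0.07 to 0.40) and Cnn1 (0.02, interval from -0.23 to 0.27), which encode actin-binding proteins of the contractile cell, were not called. The 21 tested contractile genes had a median of -0.01 (0.01 after median-of-ratios scaling, and -0.10 to 0.08 with a replicate left out), with 4 higher (15.4% of all genes) and 7 lower (23.5%) in all 3 pairs. Actg2 (0.26), another smooth muscle actin gene, was higher and Cnn2 (-0.28), a calponin gene, lower in each pair. Their transcriptional regulators had a median of -0.09 over 21 tested, with Foxo3 (-0.25) and Yap1 (-0.21) lower in each pair.

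Bone and cartilage genes mostly had low levels or small differences. Of 24 osteochondrogenic genes, 10 were tested, with 0 called and a median difference of -0.04, which turned to 0.06 without replicate 3. Spp1, a member of this list that is described below with the mineralization inhibitors, had its largest difference (0.30). It was the only member with an unadjusted p under 0.05 (6.38% of all genes were higher at that level). Runx2, the master regulator of osteoblasts, stood at 1.93, 1.48 and 0.611 FPKM in Klotho libraries and 1.97, 1.43 and 0.855 FPKM in calcification libraries (-0.07, 95% interval from -0.36 to 0.22). Sox9, its counterpart in cartilage, stood at 12.2, 12.3 and 14.2 FPKM in Klotho libraries and 13.3, 13.4 and 14.4 FPKM in calcification libraries (-0.08, interval from -0.26 to 0.10). Msx2 went both ways (-0.04, interval from -0.54 to 0.46). Alpl, for the phosphatase that releases phosphate for mineral, was below the filter at 1.06, 0.108 and 0.458 FPKM in Klotho libraries and 0.977, 0.253 and 0.272 FPKM in calcification libraries, and so was Bmp2.

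Mineralization inhibitors and phosphate handling genes had a median difference of 0.01 (-0.01 to 0.07) over 18 tested of 28. Anxa2 (0.19), for a calcium-dependent membrane-binding protein, was higher and the sphingomyelinase gene Smpd3 (-0.26) lower in each pair. Spp1, for osteopontin, a secreted inhibitor of crystal growth, stood at 163, 65.8 and 111 FPKM in Klotho libraries and 126, 47.4 and 105 FPKM in calcification libraries, higher in each pair (0.30 ± 0.09 SE, limma adjusted p = 0.276). Mgp, for matrix Gla protein, stood at 1605, 918 and 999 FPKM in Klotho libraries and 1599, 733 and 905 FPKM in calcification libraries (0.16, 95% interval from -0.04 to 0.36). The sodium-dependent phosphate importers did not differ by much: Slc20a1 had 6.21, 4.24 and 4.18 FPKM in Klotho libraries and 6.37, 4.39 and 4.53 FPKM in calcification libraries (-0.06, interval from -0.26 to 0.15), and Slc20a2 had an interval from -0.17 to 0.18. Enpp1, which makes the inhibitor pyrophosphate, was below the filter, at 0.852, 0.361 and 0.385 FPKM in Klotho libraries and 0.615, 0.685 and 0.332 FPKM in calcification libraries.

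Other growth and patterning pathways that αKlotho has been linked to had negative medians and no call. Wnt signalling genes had a median of -0.12 (-0.15 to -0.08) over 23 tested of 38, with 12 lower (23.5% of all genes) and 0 higher (15.4%) in all 3 pairs. The receptor gene Fzd1 stood at 11.2, 9.26 and 6.65 FPKM in Klotho libraries and 11.8, 14.0 and 10.8 FPKM in calcification libraries (-0.41 ± 0.12 SE, limma adjusted p = 0.279). Axin1 (-0.24), of the complex that degrades β-catenin, and Dkk3 (-0.20) were lower in each pair too. Genes of TGF-beta and BMP signalling had a median of -0.10 over 34 tested, and of -0.06 without replicate 2, with 16 lower (23.5%) and 0 higher (15.4%) in all 3 pairs. Smad7, an inhibitor that this pathway induces, stood at 6.85, 9.73 and 9.42 FPKM in Klotho libraries and 7.72, 16.7 and 12.4 FPKM in calcification libraries (-0.41 ± 0.12 SE, limma adjusted p = 0.276). Its inhibitor gene Pmepa1 (-0.24) and the BMP target Id1 (-0.19) were lower in each pair. Genes of insulin and IGF signalling had a median of -0.10 (-0.12 to -0.09) over 17 tested, with 8 lower (23.5%) and 0 higher (15.4%) in all 3 pairs. Irs2, an adaptor of both receptors, and Igf1r were lower in each pair (-0.24 ± 0.08 and -0.22 ± 0.09 SE).

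Inflammatory genes were lower chiefly in pair 2. Their median difference was -0.27 over 26 tested, but the pair medians were -0.00, -0.62 and -0.13, and without replicate 2 the median was -0.08. The chemokine gene Cxcl1 was listed at 0 in Klotho replicate 2 and stood at 7.35 and 8.37 FPKM in Klotho replicates 1 and 3, against 10.7, 24.8 and 11.2 FPKM in calcification libraries. Ccl2, a monocyte chemokine, stood at 51.4, 6.04 and 50.7 FPKM in Klotho libraries, against 46.2, 83.5 and 65.8 FPKM in calcification libraries (-1.27 ± 0.66 SE, and -0.11 without replicate 2). Ptx3, a secreted pattern recognition protein, stood at 78.1, 9.23 and 61.5 FPKM in Klotho libraries, against 79.1, 66.1 and 87.6 FPKM in calcification libraries. Klotho replicate 2 was the low library in Cxcl1, Ccl2 and Ptx3, which are named for their pair 2 after their values were seen. The leading members by unadjusted p were Saa3, Ccl8 and Icam1. Saa3, an acute phase gene, stood at 91.3, 0.105 and 10.4 FPKM in Klotho libraries and 107, 1.73 and 15.1 FPKM in calcification libraries (-0.68 ± 0.19 SE). The chemokine gene Ccl8 was instead higher in pairs 1 and 2, with 42.1, 1.92 and 7.24 FPKM in Klotho libraries and 22.2, 0.353 and 7.56 FPKM in calcification libraries (0.65 ± 0.22 SE). Icam1, a leukocyte adhesion gene, was lower in each pair (-0.40), and none of the 26 genes was called.

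Interferon-stimulated genes showed the same dependence. Their median was -0.15 over 43 tested, with pair medians of 0.14, -0.71 and 0.08, and it was 0.07 without replicate 2. Isg15, a ubiquitin-like protein, stood at 156, 33.8 and 171 FPKM in Klotho libraries, against 178, 85.0 and 218 FPKM in calcification libraries, where replicate 2 was the lowest of each group, and Irf7 (-0.33), a regulator of interferon genes, was lower in each pair. Ifi205, of a DNA-sensing family with close relatives, was the only call of the list and was higher (0.529% of all genes were called higher). It stood at 19.0, 5.77 and 7.24 FPKM in Klotho libraries and 14.4, 3.48 and 4.39 FPKM in calcification libraries (0.53 ± 0.09 SE, limma-voom adjusted p = 0.0396). The summed level of the list was 3512, 1264 and 2710.1 FPKM in Klotho libraries and 3291, 1559 and 3002 FPKM in calcification libraries.

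Metabolic and proliferation lists had medians near 0, while that of the unfolded protein and integrated stress response was negative. Cholesterol and fatty acid synthesis genes had a median of 0.07 (0.02 to 0.09) over 30 tested, with 12 higher (15.4% of all genes) and 1 lower (23.5%) in all 3 pairs, 7 higher at an unadjusted p under 0.05 (6.38%) and 0 called. Idi1, an isoprenoid isomerase of that route, stood at 5.13, 8.63 and 6.53 FPKM in Klotho libraries and 3.43, 6.09 and 4.67 FPKM in calcification libraries, with nearly the same gap in each pair (0.44 ± 0.08 SE, limma adjusted p = 0.227). The sterol synthesis genes Nsdhl (0.32) and Tm7sf2 (0.31) were higher in each pair. Cell cycle genes had a median of 0.02 (-0.04 to 0.04) over 38 tested, with 4 higher (15.4%) and 4 lower (23.5%) in all 3 pairs. Cdk1 (0.26), the mitotic kinase, was higher in each pair. The cell cycle inhibitor genes Cdkn2a (-0.20) and Cdkn2b (-0.31) were lower in each pair. Genes of the unfolded protein and integrated stress response had a median of -0.09 (-0.14 to -0.07) over 28 tested, with 13 lower (23.5%) and 3 higher (15.4%) in all 3 pairs and 0 called. The phosphatase subunit gene Ppp1r15a (-0.29), the chaperone gene Hspa5 (-0.25) and the sensor gene Ern1 (-0.22) were lower in each pair.

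**Figure D4:**
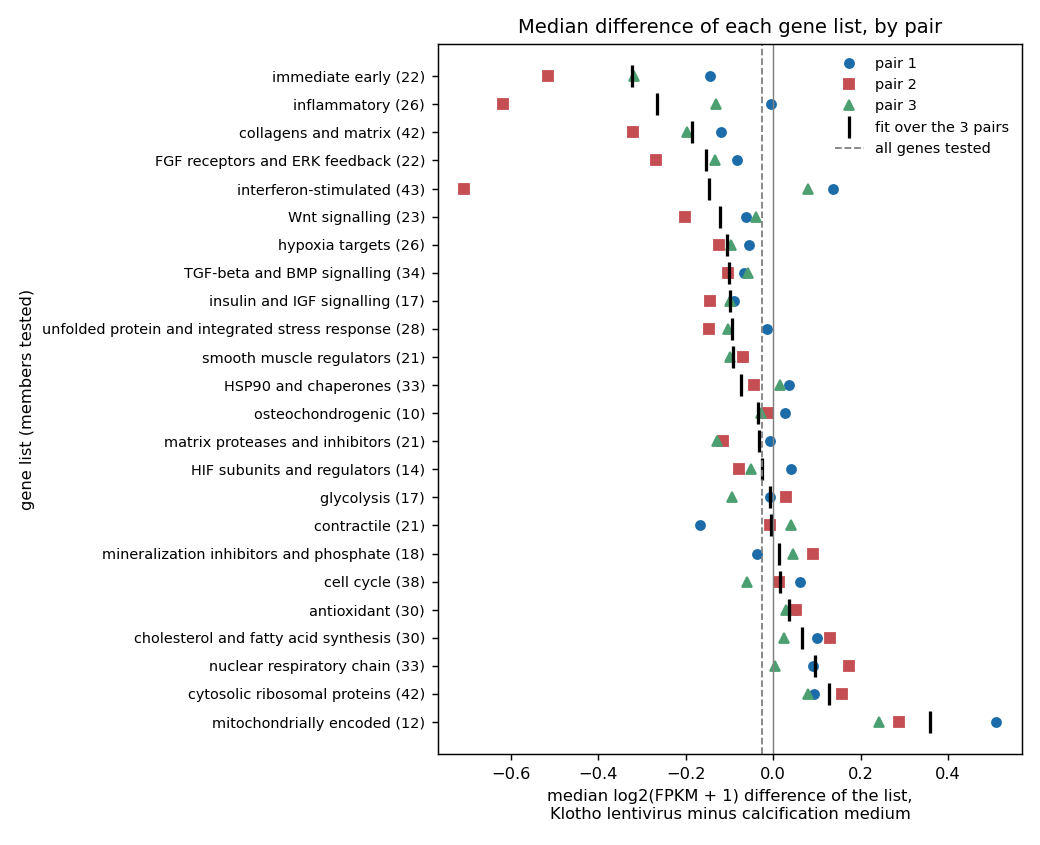
Median difference on log2(FPKM + 1), Klotho lentivirus minus calcification medium, of each pathway list, with the number of members tested in brackets. Symbols give the medians within pairs 1 to 3, black bars the median of the fitted differences and the dashed line the median of all tested genes, -0.03. Immediate early genes have all 3 pairs below the dashed line, as do several other lists, collagens and matrix among them. Mitochondrially encoded genes have all 3 above it, as do cytosolic ribosomal protein genes and some other lists. The inflammatory and interferon-stimulated lists are low in pair 2.

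Among the genes with the lowest unadjusted p were some outside the lists. Abhd11os, which lies opposite Abhd11, stood at 2.35, 4.28 and 4.35 FPKM in Klotho libraries, against 4.65, 12.3 and 8.96 FPKM in calcification libraries (-0.99 ± 0.13 SE, limma-voom adjusted p = 0.0478). Since no strand setting is given, its reads and those of its partner cannot be told apart. A gene listed only by its identifier, ENSMUSG00000095742 on an unplaced scaffold, stood at 154, 259 and 258 FPKM in Klotho libraries, against 217, 585 and 487 FPKM in calcification libraries (-0.86 ± 0.13 SE, limma-voom adjusted p = 0.0029). Snrpf, a core spliceosome protein gene, stood at 4.35, 5.89 and 7.49 FPKM in Klotho libraries, against 8.24, 9.63 and 10.7 FPKM in calcification libraries, without a call (-0.63 ± 0.09 SE, limma adjusted p = 0.227). Cbr2, a carbonyl reductase gene, was higher in each pair, with 4.36, 5.42 and 12.6 FPKM in Klotho libraries and 2.89, 3.08 and 7.82 FPKM in calcification libraries (0.58 ± 0.09 SE, limma adjusted p = 0.227). Gm10136 (0.70), Gm4459 (0.73), Ccdc152 (0.50) and Gm2058 (-0.60) were uncalled too, and Gm33228 (-0.51) was called lower.

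Markers of other cells were compared in the same way. Adventitial fibroblast markers had a median difference of 0.08 (0.01 to 0.12) over 12 tested, with Pdgfra (-0.21) lower in each pair, and their summed level was 3980, 4780 and 3675 FPKM in Klotho libraries and 3822, 4113 and 3520.1 FPKM in calcification libraries. Ly6a, a stem cell antigen gene also found on fibroblasts, was the only marker called, with 1534, 889 and 1010.2 FPKM in Klotho libraries and 1158, 603 and 912 FPKM in calcification libraries (0.37 ± 0.09 SE, limma-voom adjusted p = 0.0414). It has close relatives in its gene cluster, Ly6c1 (0.62) among them, so its value is uncertain. Mesothelial markers, 4 tested, among them Upk1b (0.12) and Msln (-0.03), summed to 74.1, 171 and 67.9 FPKM in Klotho libraries and 67.5, 181 and 64.0 FPKM in calcification libraries, highest in replicate 2 of each group. Endothelial markers, 3 tested of 12, had a median of -0.24 and summed to 6.03, 4.32 and 7.08 FPKM in Klotho libraries and 6.61, 6.44 and 9.06 FPKM in calcification libraries, lower within each pair. Macrophage markers had a median of -0.10 over 8 tested of 15, and of -0.03 without replicate 2. Lyz2, for lysozyme, was higher in each pair, with 58.4, 27.2 and 20.3 FPKM in Klotho libraries and 56.0, 17.3 and 16.1 FPKM in calcification libraries (0.33 ± 0.11 SE, limma adjusted p = 0.296). Cd14 (-0.10) and Csf1r (0.02) had pairs in both directions, and the complement gene C1qa (-0.53) was lower in each pair. Among the 7 below the filter, Ptprc, the pan-leukocyte antigen gene, was at most 0.0155 FPKM in Klotho libraries and 0.0631 FPKM in calcification libraries. Adipocyte markers (0.09, 2 tested, with Fabp4 at 0.06) and Schwann cell markers (0.08, 3 tested) rested on few genes, no striated muscle marker passed the filter, and smooth muscle markers had a median of 0.05 (-0.05 to 0.12), with Lmod1 (-0.10) lower in each pair. The part of these markers in the other differences was not tested.

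The vector libraries give the levels with an empty lentivirus in the same medium, which were not tested against either group here. Egr1 stood at 8.22, 6.08 and 7.15 FPKM in vector replicates 1 to 3, and Junb at 64.3, 66.1 and 64.8 FPKM. For Junb these lie above all Klotho libraries and within the range of the calcification libraries, and for Egr1 they lie above all Klotho libraries. Mean levels in Klotho, vector and calcification libraries were 102, 97.6 and 128 FPKM for Col3a1, and 83.7, 85.2 and 59.6 FPKM for Uqcrh. They were 114, 119 and 90.1 FPKM for Rps24, and 53.9, 51.0 and 68.2 FPKM for Klf4. In these genes the vector mean was nearer the Klotho mean. For Col3a1 this rested on replicate 1, at 187, 107 and 227 FPKM in the Klotho, vector and calcification library. In replicates 2 and 3 the vector library of Col3a1 was above both others. The vector mean was nearer the calcification mean for Ier2 (14.2, 30.4 and 27.2 FPKM) and Zfp36 (16.3, 23.5 and 23.5 FPKM). The same held for the called collagen genes Col4a2 (309, 386 and 427 FPKM) and Col16a1 (10.5, 14.4 and 15.1 FPKM). Other called collagen genes went both ways. Prdx1 stood at 210.3, 236 and 216 FPKM in vector libraries, between the means of 255 FPKM in Klotho libraries and 174 FPKM in calcification libraries. Mitochondrially encoded transcripts made up 1.72%, 1.53% and 1.19% of total FPKM in vector libraries, below every Klotho and every calcification library. Cytosolic ribosomal proteins, summed, stood at 17603, 19903 and 23505 FPKM in Klotho libraries, 28463, 25646 and 20288 FPKM in vector libraries and 16271, 17254 and 22654 FPKM in calcification libraries.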

How the data were processed

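RNA was measured in 12 libraries of 4 groups with 3 replicates each. The deposited table holds FPKM values per gene that the authors computed, as its values bear out; the submitters' processing notes name CASAVA 1.8.2, STAR 2.4, DESeq2 3.12 and the builds GRCm38 and GRCm39, with no role given. No source used here gives the counting tool, the annotation or the strandedness. The test was limma 3.58.1 in R 4.3.3 on log2(FPKM + 1) of the 6 libraries, with a mean-variance trend, the replicate number as a block and Benjamini-Hochberg adjustment over the 10795 genes averaging 1 FPKM or more.

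Low FPKM values were whole multiples of the value of 1 fragment: in the 6 libraries compared, 98.12% to 98.3% of those under 100 fragments were whole within 0.05. This gave the depths and the fragments for limma-voom. DESeq2 was not run, since the table holds no raw counts. Deviations from the group means correlated at 0.73, 0.58 and 0.67 between same-numbered libraries, and on these values the numbers were taken to pair the samples. Between all others they correlated at 0.003 or less, but deviations sum to 0 within a group, which pushes these values down. The pairing comes from the data and the labels do not explain it.

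Genes were named by 3 rules: genes the study asks about, the 10 higher and 10 lower genes with the lowest unadjusted limma p among those with the same sign in all pairs and at least 5 FPKM, and the 3 leading members of each of 32 lists. Other named genes are members that illustrate a list or are said to be chosen after their values were seen. The comparison, members and lists were chosen with earlier results of these data known. Fits were run on simulated data in which genes varied independently, which cannot show how they do where many genes shift together. Alternatives were other scalings, filters, pseudocounts, fits without the block or with all 12 libraries, removal of GC content and length trends, limma-voom, and leaving out each replicate.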

Additional observations from a re-analysis of the deposited data

How the results depend on the processing

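limma called 0 genes over all 3 pairs and 11 or fewer when a replicate was left out (range 0 to 11, the 11 without replicate 1). It called 0 under each other alternative except limma-voom, which called 114. Without the replicate block limma made 0 calls and had 282 unadjusted p-values under 0.05, against 1537 with it, and the median standard error was 0.165 against 0.0974. The limma-voom alternatives were chosen after seeing the data. They called 0 genes without the replicate block (241 unadjusted), 0 with all 12 libraries and the block (547 unadjusted), 9 with trends of GC content and length removed, and 6 to 190 with a replicate left out. Fold changes correlated across genes, which are not independent replicates, with GC content at -0.20 and with log2 exon length at -0.15; that cause was not tested. The difference in the mitochondrially encoded share ranged from 0.488 to 0.684 percentage points without each replicate and was 0.580 over tested genes alone. Of 594 alternative list medians, 493 moved by less than the spread between replicates and 53 changed sign, in 13 lists. Of 2345 alternative differences of 107 genes, 24 passed the threshold where the reported one did not, and 95 changed sign, in 40 genes. Short genes of a few FPKM rest on fewer fragments than long ones, and 3 libraries per group cannot give an exact p under 0.1.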
